A study of Mus musculus with 4 samples.

Results

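The genes described here mark mast cells and basophils, rare cells of allergy and of defence against parasites. They were the 10 genes Cpa3, Cma1, Mcpt1, Mcpt2, Mcpt4, Mcpt8, Tpsb2, Ms4a2, Fcer1a and Kit, and every probe set with one of these symbols in the platform annotation was taken. A probe set is a group of short array probes for 1 transcript. All 10 genes were on the array, with 16 probe sets of 12422, that is 10 of 8251 genes with a probe set of their own. Their intensities were compared in spleens of female Nrf2 -/- mice and Nrf2 +/+ littermates, 2 arrays per genotype, at 5 months of age, which the labels place before severe autoimmune disease. Both genotypes descended from interbred heterozygotes, made by crossing Nrf2 +/+ mice on a C57B6/SJL background with Nrf2 -/- mice on a C57B6/129SVJ background, so both carry mixed strain backgrounds. Nothing in the labels ties an array to a single animal, so p-values here reflect the spread between samples alone, and that spread may be technical. With so few arrays every value has limited precision.

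Mast cells and basophils bind IgE through the high-affinity receptor FceRI and, when antigen crosslinks it, release granules that hold histamine and proteases. Mast cells mature in tissues and depend on the growth factor receptor Kit, whereas basophils circulate, are few in blood and spleen, and have little Kit when mature. Kit is also present on blood-forming progenitor cells, which the mouse spleen contains. The granule proteases divide by cell and by site: Cma1, Mcpt4, Tpsb2 and Cpa3 belong mainly to mast cells of connective tissue, Mcpt1 and Mcpt2 to mast cells of mucosa, and Mcpt8 to basophils. Nrf2 is a transcription factor that induces antioxidant and detoxifying genes. In bulk RNA, fewer cells of a type and less RNA per cell cannot be told apart.

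Most of these genes were barely measurable in spleen. Intensities below 185, the 25th percentile of all values on the 4 arrays, were raised to that floor before log2 was taken. Of the 16 probe sets, 4 lay below the floor on all 4 arrays, 7 were above it on some arrays and 5 on every array. Mcpt4 was the single gene with all its probe sets below the floor everywhere. For comparison, 8 of 9 B cell and 6 of 7 T cell marker probe sets were above the floor on all 4 arrays. Most exocrine pancreas marker probe sets were too, so clearing the floor does not check the labelled tissue. Some of these lay far above it: Cel read 1236 and 1481 in knockout and 9546 and 3186 in wild-type spleen. Pnliprp1 was below the floor on the knockout arrays, at 58 and 60.3. Only probe sets whose mean log2 value lay above the 40th percentile were tested, which left 7453, or 60.0% of the array, and 4 of these 16, or 25%. The tested ones were 1 probe set each of Cma1, Mcpt8, Tpsb2 and Kit. None of the 4 passed at an adjusted p under 0.05 (limma over all 7453 probe sets, Benjamini-Hochberg adjustment), where 0.0537% of all tested probe sets passed, and none had an unadjusted p under 0.05, where 1.74% did.

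**Figure D1:**
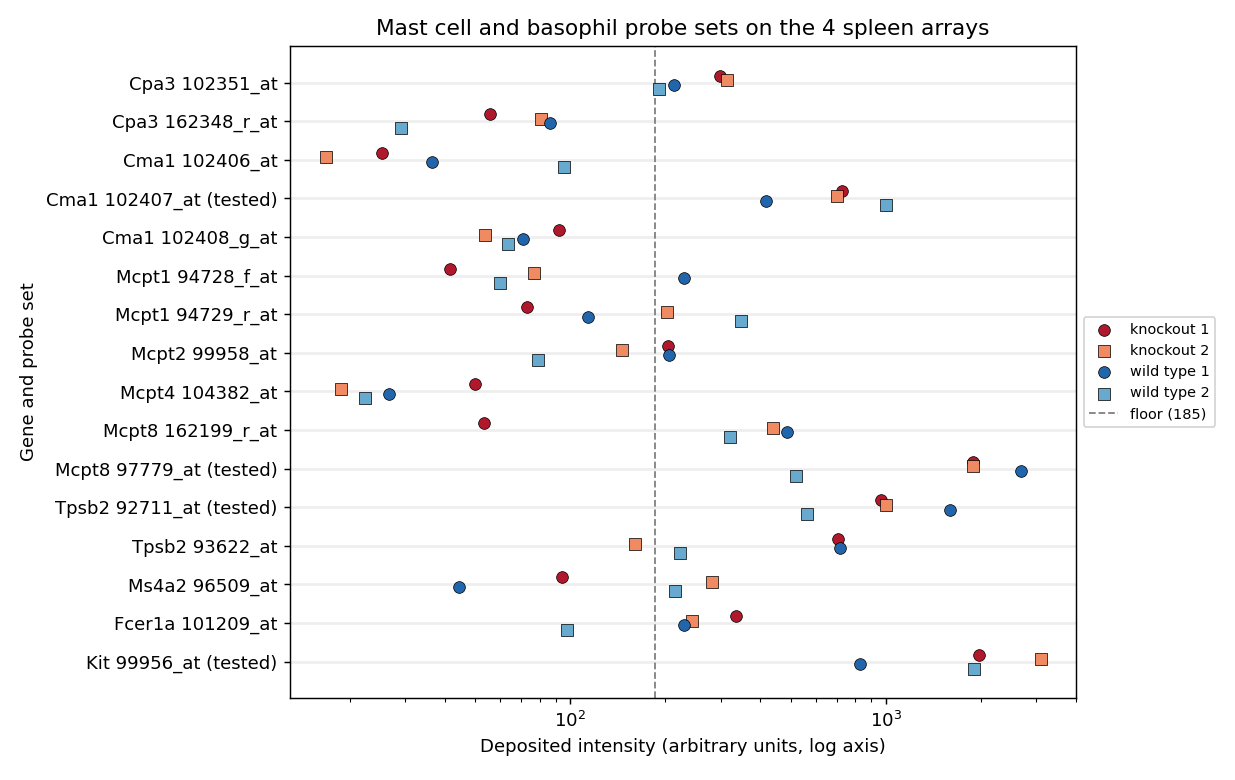
Deposited intensity (arbitrary units, log axis) of each of the 16 probe sets, with 1 point per array in each row and small vertical offsets so that points can be told apart. The dashed line is the floor of 185; knockout and wild-type points are mixed in most rows, and Kit, the brighter Cpa3 probe set and Fcer1a have both knockout points to the right of both wild-type points.

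The groups did not overlap for 4 of the 16 probe sets, or 25%, against 28.1% of all 12422. Both knockout arrays were above both wild-type arrays for 3 of them, 1 probe set each of Kit, Cpa3 and Fcer1a, where 15.1% of all probe sets did this. Both were below for 1, a Cma1 probe set that lay under the floor on every array, where 13.1% of all probe sets did this. These shares are near the background. The upstream sequences of Kit, Cpa3 and Fcer1a are shown because these are the genes whose knockout values were separate and higher. They are the 250 bases before the annotated start, 5′ to 3′ on the gene's strand, from RefSeq on GRCm38.p6, and capitals mark matches to 3 motifs searched on both strands. The motifs were that of GATA factors, which direct mast cell genes (AGATAA, also with T as its first or G as its last letter), that of the mast cell factor MITF (CACGTG, or as a second form CATGTG) and the core of the Nrf2 site (TGACNNNGC).
Kit, chr5:75574737-75574986, plus strand: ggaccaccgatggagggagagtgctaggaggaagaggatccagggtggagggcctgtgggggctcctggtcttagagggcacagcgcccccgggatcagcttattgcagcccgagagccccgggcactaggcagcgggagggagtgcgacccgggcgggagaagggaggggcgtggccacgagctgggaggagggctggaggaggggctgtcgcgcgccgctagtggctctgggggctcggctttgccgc
Cpa3, chr3:20242182-20242431, minus strand: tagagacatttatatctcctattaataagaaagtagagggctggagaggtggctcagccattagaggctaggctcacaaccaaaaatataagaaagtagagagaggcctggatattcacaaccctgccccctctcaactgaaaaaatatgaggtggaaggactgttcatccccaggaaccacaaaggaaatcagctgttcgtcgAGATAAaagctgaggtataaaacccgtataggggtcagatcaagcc
Fcer1a, chr1:173227230-173227479, minus strand: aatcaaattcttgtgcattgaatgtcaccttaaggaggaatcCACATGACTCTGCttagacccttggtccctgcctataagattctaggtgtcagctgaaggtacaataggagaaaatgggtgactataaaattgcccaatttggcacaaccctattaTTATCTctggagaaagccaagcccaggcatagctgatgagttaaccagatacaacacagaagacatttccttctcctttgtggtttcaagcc
The Kit window has no match, Cpa3 has a GATA motif (AGATAA), and Fcer1a has a GATA motif (TTATCT, the reverse strand) and an Nrf2 core (TGACTCTGC) whose first bases overlap a MITF motif (CACATG, the reverse strand). The promoter table held 8 of the 10 genes. In windows of 300 bases, from 250 before to 50 after the start, the GATA motif was in 6 of the 8 (Cma1, Cpa3, Fcer1a, Mcpt1, Mcpt4 and Ms4a2), against 29.8% of all 32851 promoters. The MITF motif and the Nrf2 core were each in 1 of the 8, Fcer1a, against 20.4% and 12.4% of all promoters. A match of letters is a description and not a binding site.

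Kit, the receptor for stem cell factor, had the largest difference of the 4 tested genes. It read 1979 and 3098 in knockout replicates 1 and 2 against 831.8 and 1906 in wild-type replicates 1 and 2. Both knockout arrays were above both wild-type arrays, but knockout replicate 1 exceeded wild-type replicate 2 by little, and wild-type replicate 1 was the low value. The means were 2539 ± 791 in knockout and 1369 ± 760 in wild-type spleen (SD, n = 2 each), a log2 difference of 0.98 (SE 0.51, 95% confidence interval -0.21 to 2.16), or 1.97-fold. The adjusted p was 0.992 (limma, unadjusted p = 0.0945), and 5.92% of all tested probe sets differed by at least as much in either direction. The gap between the wild-type arrays, 2.29-fold, was larger than the difference between genotypes. With wild-type replicate 1 left out the log2 difference of Kit was 0.38, and with wild-type replicate 2 left out instead it became 1.57 (limma unadjusted p = 0.0108, adjusted p = 0.0884). In that last comparison 29.4% of all tested probe sets had an unadjusted p under 0.05.

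Progenitor cells also carry Kit, and their markers are given for that reason. Of 7 tested progenitor probe sets 3 measured higher and 4 lower, with a median log2 difference of -0.09 and none passing. Without cross-hybridising probe sets 3 remained, 1 higher and 2 lower, with a median of -0.66. The summed intensity of the 12 probe sets on the array was 53525 and 63098 in knockout and 121353 and 51276 in wild-type spleen, so the genotypes overlapped in this sum. One probe set of Lyl1, a transcription factor of blood progenitors, carried most of the high value, with 85759 in wild-type replicate 1 and 22477 to 31010 on the other arrays. That probe set was counted as cross-hybridising by its name. Wild-type replicate 1, the lowest array for Kit, was the lowest for 2 of the 7 tested progenitor probe sets and the highest for 4. Over all 12 it was the lowest for 4. Gfi1b was highest there, at 8351 against 2126 to 5694. A tested probe set of the receptor Flt3 was lowest there, at 959.8 against 2390 to 2476, whereas the other Flt3 probe set was highest. The brighter Cd34 probe set, at 73.5 against 335.6 to 455.7, and that of Meis1, at 17.4 against 219.3 to 482.5, were also lowest in that array. The Meis1 and both Cd34 probe sets were too dim to test, and one of the Cd34 probe sets was below the floor on all 4 arrays. As for Kit, both knockout arrays were above both wild-type arrays for Meis1, the brighter Cd34 probe set and the first Flt3 probe set. Hoxa9, also too dim to test, was separate in the same direction. The other progenitor probe sets overlapped. Of all probe sets on the array 15.1% were separate and higher in knockout. The part of progenitors in the Kit values was not tested. Over the 4 arrays, the 3 probe sets whose centred log2 values lay nearest to those of Kit were those of Pitpnb, Top1 and Ap3s1, at distances of 0.074, 0.11 and 0.13 on the log2 scale. With 4 arrays such closeness is a description only.

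Mcpt8, the protease that marks mouse basophils, was the tested member most unevenly spread between the wild-type arrays. Its tested probe set read 1891 and 1889 in knockout replicates 1 and 2 against 2677 and 519.1 in wild-type replicates 1 and 2. The knockout arrays were nearly equal and lay between the wild-type arrays. The means were 1890 ± 1.70 and 1598 ± 1526 (SD, n = 2 each), a log2 difference of 0.68 (SE 0.71, 95% confidence interval -0.96 to 2.33, limma adjusted p = 0.992). The wild-type arrays differed by 5.16-fold, and 1.97% of all tested probe sets had a wild-type gap as large. The direction depended on which wild-type array was used: the log2 difference was 1.86 without wild-type replicate 1 (limma unadjusted p = 0.00235, adjusted p = 0.473) and -0.50 without wild-type replicate 2 (adjusted p = 0.310). The second Mcpt8 probe set, too dim to test, read 53.3 and 439.5 on the knockout arrays and 485.2 and 321.9 on the wild-type arrays, so there knockout replicate 1 was the low array.

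Neutrophils, whose granules hold related proteases, were also followed by their markers. Their summed intensity over 14 probe sets was 535718 and 596387 in knockout replicates 1 and 2 and 716630 and 179523 in wild-type replicates 1 and 2. S100a8 and S100a9, subunits of calprotectin, made up much of that sum. Wild-type replicate 2 was the lowest array for 12 of 13 tested neutrophil probe sets, as it was for Mcpt8, but wild-type replicate 1 was the highest for only 3, those of S100a8, S100a9 and Ngp. In 8 of the 13 both knockout arrays were above both wild-type arrays, against 1064 of all 7453 tested probe sets. That was not so for Mcpt8. Of 13 tested neutrophil probe sets 13 measured higher in knockout spleen, with a median of 1.04, and none passed over all probe sets. Of the 13, 5 had an unadjusted p under 0.05 (limma), against 1.74% of all tested probe sets. Without wild-type replicate 2, 9 measured higher and 4 lower (median 0.32). Without wild-type replicate 1 all 13 measured higher (median 1.94). The part of neutrophils in the Mcpt8 values was not tested.

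Cma1 encodes the mast cell chymase also known as Mcpt5. Its tested probe set read 727.5 and 700.4 on the knockout arrays and 418.4 and 1005 on the wild-type arrays. The wild-type arrays again lay on either side of both knockout arrays, but here wild-type replicate 1 was the lower, opposite to Mcpt8. The means were 714 ± 19.2 and 711 ± 414 (SD, n = 2 each), with a log2 difference of 0.14 (SE 0.55, 95% confidence interval -1.14 to 1.42, limma adjusted p = 0.993). Its other 2 probe sets lay below the floor on all 4 arrays, between 16.8 and 95.5. The tested probe set gave a log2 difference of -0.49 when wild-type replicate 1 was left out and 0.77 when replicate 2 was.

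Tpsb2 encodes the mast cell tryptase also known as Mcpt6. One probe set read 968.3 and 1002 on the knockout arrays and 1595 and 565.1 on the wild-type arrays. As for Mcpt8, the knockout arrays were close together and lay between a high wild-type replicate 1 and a low wild-type replicate 2. The means were 985 ± 23.8 and 1080 ± 728 (SD, n = 2 each), and the log2 difference was 0.05 (SE 0.56, 95% confidence interval -1.25 to 1.35, limma adjusted p = 0.997), with the sign turned under all 3 other scalings of the arrays. Leaving out wild-type replicate 1 gave 0.80, and leaving out wild-type replicate 2 gave -0.70. The other Tpsb2 probe set, not tested, read 705.4 and 160.8 against 719.2 and 222.7, so replicate 1 was high in both genotypes.

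**Figure D2:**
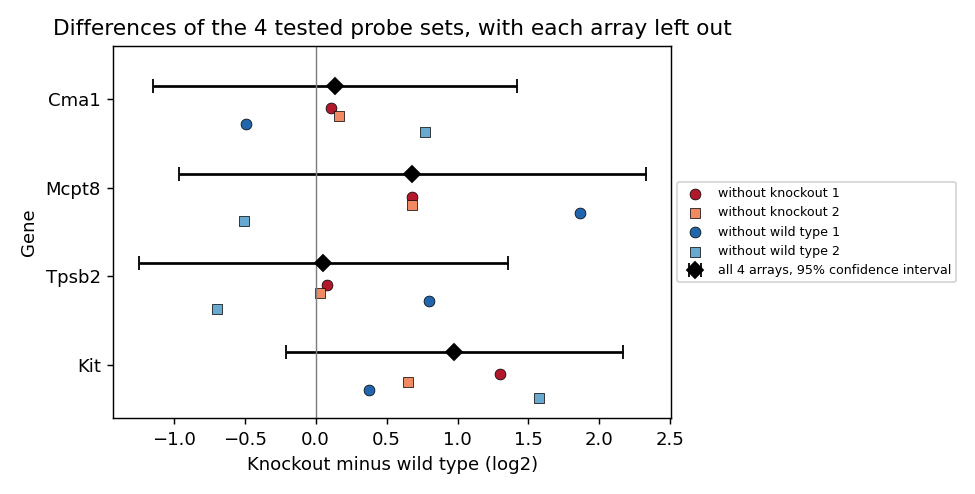
Knockout minus wild type (log2) for the 4 tested probe sets: diamonds and bars give the estimate and its 95% confidence interval from all 4 arrays, and coloured points the estimate with the named array left out. All 4 intervals include 0, and leaving out a wild-type array moved each estimate more than leaving out a knockout array did, for instance to 1.86 or -0.50 for Mcpt8.

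For the 4 tested probe sets the wild-type gap was larger than the knockout gap in all 4, as it was in 70.4% of all tested probe sets. The groups were separate in 1 of them, Kit, or 25%, against 26.4% of all tested. The genotype difference was larger than both gaps in none of them, against 12.8% of all tested probe sets. The median log2 difference of the 4 was 0.41, against 0.04 over all tested probe sets, and it ranged from 0.13 to 0.59 with 1 array left out. By the mean of log2 values 4 of these 4 probe sets measured higher in knockout spleen, although the mean intensity of Tpsb2 was lower. Over all 7453 tested probe sets 4004 measured higher and 3449 lower. The members' count was 3 under each other scaling, where Tpsb2 turned. Leaving out wild-type replicate 1 made it 3, and leaving out the other wild-type array made it 2.

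Cpa3, the mast cell carboxypeptidase, was too dim to test, with values close to each other within each genotype. Its brighter probe set read 299.3 and 313.1 on the knockout arrays and 213.6 and 191.3 on the wild-type arrays. All 4 values were above the floor and the genotypes were separate. The means were 306 ± 9.76 and 202 ± 15.8 (SD, n = 2 each), a log2 difference of 0.60, or 1.51-fold. When limma was run without the filter on dim probe sets, Cpa3 was the one member probe set with an unadjusted p under 0.05 (limma unadjusted p = 0.00488, adjusted p = 0.891), where 2.73% of all probe sets were under 0.05. The other Cpa3 probe set lay below the floor on all 4 arrays, between 29.1 and 86.1. Without the filter the SE was 0.003 for it and 0.074 for the brighter one. With the filter, the median SE of the tested probe sets was 0.46. The floor flattens dim probe sets, and that fit shares spread among probe sets of like intensity. The unadjusted p of the brighter one may therefore be too small.

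Fcer1a and Ms4a2, subunits of the IgE receptor, were also dim. Fcer1a, the alpha chain that binds IgE, read 336 and 243.2 on the knockout arrays and 230.3 and 98 on the wild-type arrays. The genotypes were separate, with knockout replicate 2 only slightly above wild-type replicate 1 and wild-type replicate 2 below the floor. With the floor, the log2 difference was 0.47. Ms4a2, the beta chain that amplifies the signal, read 94.3 and 281.2 against 44.4 and 215.7, so both genotypes had a low replicate 1 below the floor. Fcer1g, the signalling gamma chain shared with other Fc receptors of myeloid cells, read 4761 and 2340 against 1770 and 1792 on its tested probe set. Its knockout values were separate and higher, by 0.91 on the log2 scale (SE 0.46, limma adjusted p = 0.992). The name of this probe set carries a mark of the array design for possible cross-hybridisation, so which transcript it measured is uncertain. The other Fcer1g probe set read 224.8 and 28.3 against 134.6 and 26.7, with overlap and only 1 value above the floor.

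The mucosal proteases Mcpt1 and Mcpt2 and the chymase Mcpt4 gave little signal. The 2 probe sets of Mcpt1 read from 41.7 to 229.1 and from 73.2 to 349.3 over the 4 arrays, and the genotypes overlapped in both. Mcpt2 read 204.7 and 145.6 on the knockout arrays and 206.5 and 79.3 on the wild-type arrays, again with overlap. Mcpt4 ranged from 18.8 to 49.9, below the floor throughout. These genes lie in 1 cluster on chromosome 14, where the annotation lists the protein-coding genes Cma1, Cma2, Mcpt1, Mcpt2, Mcpt9, Mcpt4, Mcpt8 and Ctsg in that order. Their sequences are alike, and both Mcpt1 probe set names carry a mark of the array design for possible cross-hybridisation or a reduced set of rules, so which transcript gave these low values is uncertain.

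**Figure D3:**
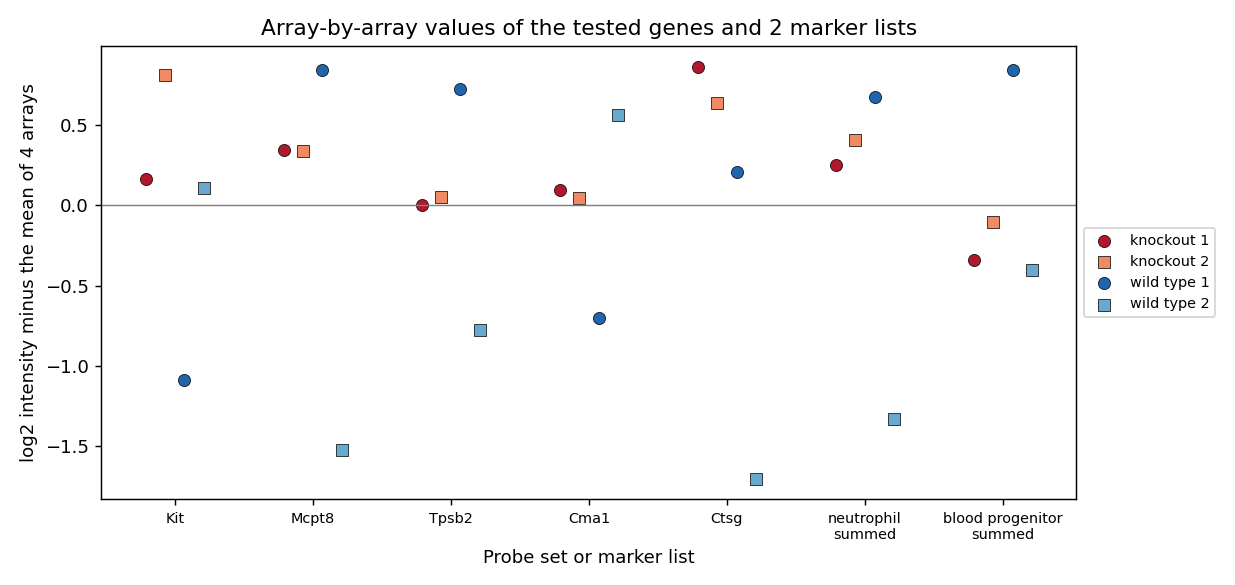
log2 intensity of each array minus the mean of the 4 arrays, for the 4 tested probe sets, Ctsg and the summed intensities of neutrophil and progenitor markers, with 1 point per array. Mcpt8, Tpsb2, Ctsg and both sums have wild type 2 as the lowest point, though by little in the progenitor sum. Kit and Cma1 have wild type 1 lowest.

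Other genes of these cells were taken from lists by role. Their counts of direction stand beside 4004 higher and 3449 lower over all 7453 tested probe sets. Among mast cell granule genes, 5 of 5 tested probe sets measured higher in knockout spleen (median 0.18, none passing), but 2 of 5 without knockout replicate 1 and 4 or 3 of 5 with median or loess scaling. Ctsg, cathepsin G, which neutrophil precursors also make, read 2554 and 2180 on the knockout arrays and 1618 and 432.1 on the wild-type arrays. Its groups were separate, with a log2 difference of 1.50 (SE 0.62, limma unadjusted p = 0.0431, adjusted p = 0.992). Hdc, the enzyme that makes histamine, read 2809 and 2040 against 2036 and 1303, where knockout replicate 2 and wild-type replicate 1 were nearly equal. Cd63, a granule membrane protein exposed on degranulation, differed by 0.18 on the log2 scale. The tryptase Tpsab1 lay below the floor on all 4 arrays.

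Of 19 tested probe sets in the FceRI signalling list 12 measured higher and 7 lower (median 0.31, none passing and none with an unadjusted p under 0.05, limma). The median was 0.02 without wild-type replicate 1. Besides Fcer1g, the 2 with the smallest p were Fyn, a kinase that acts early in the pathway, at 1.19 on the log2 scale (SE 0.71), and Lcp2, the adaptor SLP-76, at 0.77 (SE 0.46). For Fyn the difference came with 1 low value, 950.7 in wild-type replicate 1, against 4273 to 5557 on the other 3 arrays. In the Kit signalling list 8 of 11 measured higher and 3 lower (median 0.16, none passing), and 6 to 7 were higher under other scalings. Leaving out wild-type replicate 1 gave 6 higher and 5 lower with a median of 0.0061, and leaving out wild-type replicate 2 gave a median of 0.60. Kitl, the ligand of Kit, read 2696 and 3800 on the knockout arrays and 578.2 and 3662 on the wild-type arrays, so it was low in the same array as Kit, and the genotypes overlapped (log2 1.14, SE 0.78). Sos1, an activator of Ras, and Pik3ca, a PI3-kinase subunit, differed by 0.63 and 0.58 on the log2 scale, and the other Pik3ca probe set by 0.50.

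Among transcription factors of these cells 3 of 10 tested probe sets measured higher and 7 lower (median -0.21, none passing), and 8 were higher and 2 lower without knockout replicate 1. Gata2, needed by progenitors, mast cells and basophils, read 1926 and 2045 on the knockout arrays and 1512 and 2116 on the wild-type arrays, with overlap (log2 0.15, SE 0.40). Gata1, which red cell precursors also use, read 1140 and 3198 against 3808 and 2221 on the probe set with the smaller p, so knockout replicate 1 was low. The name of that probe set carries a mark for possible cross-hybridisation. The other Gata1 probe set read 764.3 and 3949 against 2784 and 2344. Mitf, the factor that many mast cell genes depend on, was too dim to test at 306.8 and 267 against 197.4 and 105.2. Its knockout values were separate and higher. Spi1, the myeloid factor PU.1, differed by 0.44 and Tfeb, a relative of Mitf, by -0.61 on the log2 scale.

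In the list of cytokines and their receptors, 8 of the 15 probe sets were below the floor on all 4 arrays. Il3 was above it on all 4, at 253.9 to 337.2, but too dim to test. Il3ra, the alpha chain of the receptor for interleukin-3, a growth factor of basophils and mast cells, read 1580 and 1179 on the knockout arrays and 899.3 and 584 on the wild-type arrays. The genotypes were separate, with a log2 difference of 0.91 (SE 0.46, limma unadjusted p = 0.0804, adjusted p = 0.992). Csf2rb2, a beta chain of the receptor for the same cytokine, differed by 0.95 (SE 0.56), with overlap. Fcer2a, the low-affinity IgE receptor of B cells, was the third tested gene of the list, at -1.51 on the log2 scale (SE 0.42, limma unadjusted p = 0.00743, adjusted p = 0.992). The 3 tested probe sets of this list had a median of 0.91, which was 0.21 without wild-type replicate 1 and -0.28 with the filter at the 60th percentile, where 2 of them were tested. Il4, which basophils secrete, was chosen after its values were seen. Of its 4 probe sets 1 read 642.5 and 495.2 on the knockout arrays and 122 and 269.1 on the wild-type arrays. The name of this probe set, too dim to test, carries a mark by which probe sets were counted as cross-hybridising. The other 3 were below the floor throughout. Of 4 tested probe sets for lipid mediator genes 2 measured higher and 2 lower (median 0.29, none passing), and 4 higher without wild-type replicate 1. Lta4h, of leukotriene B4 synthesis, differed by 0.83, Pla2g4a, which releases arachidonic acid, by 0.61 and Ltc4s, of leukotriene C4 synthesis, by -0.22 on the log2 scale.

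**Figure D4:**
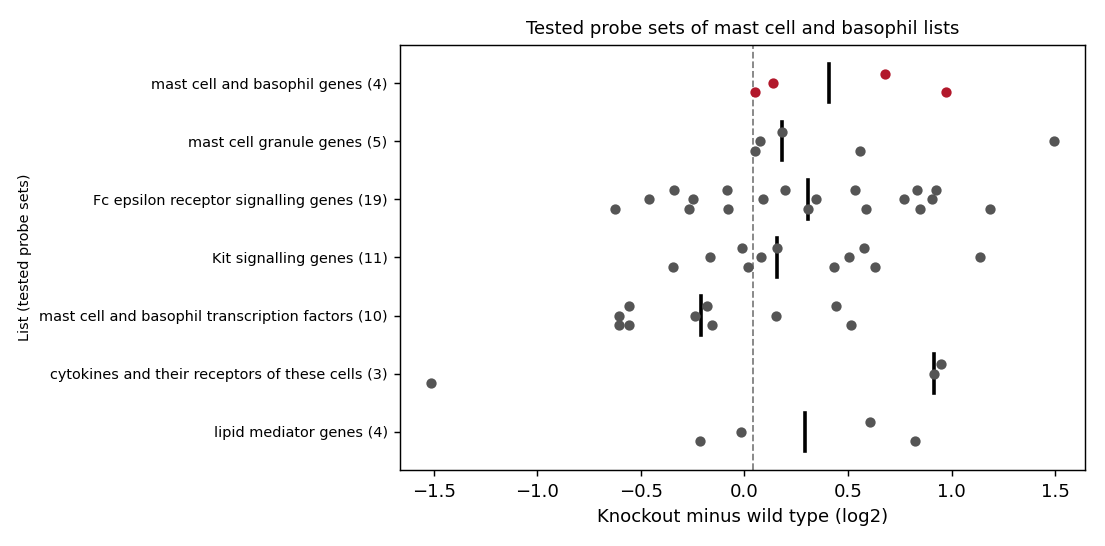
Knockout minus wild type (log2) for each tested probe set of the members and of 6 lists of related genes, with 1 point per probe set and small vertical offsets; black bars are list medians and the dashed line is the median of all tested probe sets, 0.04. The points of every list straddle or adjoin that line, and list medians run from -0.21 for transcription factors to 0.91 for the 3 tested probe sets of the cytokine and receptor list.

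Markers of other cells are given by the direction in which they measured, and none passed over all probe sets. All 3 tested eosinophil and all 4 tested megakaryocyte and platelet probe sets measured higher in knockout spleen, and without wild-type replicate 2 these counts were 2 of 3 and 2 of 4. Lower were 5 of 6 erythroid (1 of 6 without knockout replicate 1) and 6 of 8 B cell probe sets. So were 5 of 6 T cell (3 of 6 without knockout replicate 2) and 6 of 7 exocrine pancreas probe sets. The 6 lower pancreas probe sets were separate, each with an unadjusted p under 0.05 (limma). Summed over the 7 pancreas probe sets, intensity was 9310 and 10922 on the knockout arrays and 81790 and 21128 on the wild-type arrays. Wild-type replicate 1 was the highest array for all 7. Higher were 3 of 4 NK cell probe sets (2 of 4 with median or loess scaling or without wild-type replicate 1), 7 of 10 of splenic macrophages (4 of 10 without wild-type replicate 1) and 6 of 8 of fibroblasts and stroma. The part of these cells in the member values was not tested. Across tested probe sets Pearson's r was 0.849 to 0.851 between wild-type replicate 1 and the other arrays and 0.938 to 0.947 among those 3, and the 3'/5' signal ratio of the Gapdh control was 88.3 in that array against 8.07 to 34.8 on the others. The same ratio of the beta-actin control was 14.4 in that array against 8.86 to 19.3. The targeted gene Nfe2l2, which encodes Nrf2, read 202 and 178.6 in the arrays labelled knockout and 3537 and 6321 in wild type (log2 -4.61, SE 0.47, limma adjusted p = 0.0199).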

How the data were processed

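Total RNA of female mouse spleen was measured on 4 arrays, 2 knockout and 2 wild type. Per the labels, genotype, sex, tissue and age define the groups. The deposited table holds 1 intensity per probe set and array, of 1 colour and not log-transformed; no label or header read here names the authors' software or scaling. Their 2% trimmed means, 2502 on all 4 arrays, were nearly equal, so values were used as deposited. Of 12488 probe sets, 66 controls were left out. Values below the pooled 25th percentile were raised to it, log2 was taken, and the 7453 probe sets with a mean above the 40th percentile were fitted in limma 3.58.1 under R 4.3.3 (lmFit, eBayes with an intensity trend, two-sided, Benjamini-Hochberg). Symbols came from the platform annotation, updated by gene identifier: 10833 probe sets had 1 symbol, of which 10817 matched the reference table, 396 several and 1193 none. Named were all member probe sets, the 3 genes of each related list with the smallest p, Fcer1g, Gata2, Mitf, Kitl, Hdc and Il3ra, Nfe2l2 and the 3 probe sets nearest to the brightest member. The members and lists were chosen with earlier results of these data known. The alternatives changed 1 of these at a time: the scaling, the floor, the filter, the variance model, a replicate block, the arrays used and the removal of cross-hybridising probe sets. On simulated data for this comparison with 200 of 7453 probe sets changed, 6.0% of 2-fold, 72.0% of 4-fold and 100% of 16-fold changes were recovered, and 9.15% of calls were false. Figures used matplotlib 3.10.9.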

Additional observations from a re-analysis of the deposited data

How the results depend on the processing

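None of the 4 tested member probe sets passed under any of the 15 alternatives, where their adjusted p ran from 0.0884 to 1 (limma). Kit kept its direction in 15 of 15, between 0.38 and 1.57. Its groups were separate, so leaving out 1 array could not turn the direction. Several other alternatives, such as those of the variance model, leave the estimate itself unchanged at 0.98. Tpsb2 turned under quantile, median and loess scaling, to -0.057, -0.0056 and -0.0076, against 0.05 without such scaling; the cause was not tested. With 1 array left out, a comparison in which the lone array is assumed to vary like the others, the log2 differences ranged from -0.49 to 0.77 for Cma1, from -0.50 to 1.86 for Mcpt8 and from -0.70 to 0.80 for Tpsb2. The members' median ranged from 0.13 to 0.59 over the same fits, and it was 0.83 with the filter at the 60th percentile, where 2 members remained to test. The number of probe sets passing over the whole array, 4, was 0 without the filter (339 of 12422 with an unadjusted p under 0.05), 2 without cross-hybridising probe sets, and 3 to 13 with 1 array left out. A block on the replicate number gave 36, and 0 members passed in it. The labels do not say that the replicate number pairs samples, and the deviations of replicate 1 of both genotypes correlated at 0.039. With 4 arrays no exact permutation test of 1 value can give a two-sided p below 0.333. Most member probe sets lay near or under the floor of 185 and were not tested.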
